A study of Mus musculus with 39 samples.

Results

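The comparison described here is that of duodenum from antibiotic-treated mice given leptin into the brain with duodenum from antibiotic-treated mice given saline in the same way. Its libraries are all those labelled Leptin-antibiotic (6) and Saline-antibiotic (6), 12 of the 39 libraries in the series, and every gene of the deposited count table entered. Both groups were male wild-type C57BL/6 mice of 8 weeks with a cannula placed in the right lateral ventricle 3 days before the injection. Both drank ampicillin at 1 g/L with neomycin at 0.5 g/L for 48 h, and both were deprived of food for 2 h early in the light period. Leptin-antibiotic mice then received 3 µg of leptin through the cannula and Saline-antibiotic mice sterile saline, and tissue was frozen 2 h later. The Leptin-water (6) and Saline-water (6) libraries of the same label series, from mice that drank plain water but were otherwise handled alike, entered the same fit and served for comparison. All cells of the duodenum were present in the samples, so a level is an average over epithelium, immune cells, muscle and nerves.

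Leptin is made by fat cells and signals through a receptor that is abundant in the hypothalamus, from where autonomic nerves and the pituitary-adrenal axis can act on the gut. The duodenum is lined by enterocytes, which digest and absorb lipid, sugar and peptides, by mucus-secreting goblet cells and by hormone-secreting cells, all renewed from crypt stem cells. Its transcription follows feeding, the circadian clock and circulating glucocorticoids, and nuclear receptors such as PPAR-alpha and PXR translate dietary lipid, bile acids and drugs into gene expression. The question the groups address is which duodenal genes differ soon after central leptin when oral antibiotics have been given.

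Library totals of the 12 antibiotic libraries were 30207536 to 67870777 counts, and the ribosomal RNA gene Rn45s took 6.08% to 13.3% of them. The enterocyte markers Alpi, Vil1, Apoa1, Apoa4, Fabp1 and Fabp2 were all detected and summed to 9406 to 17063 CPM (counts scaled to a common library size) with saline and 14632 to 22563 CPM with leptin. The deposited table had been filtered, so genes with few counts may be absent from it. It held 9 of 14 listed B and plasma cell markers and 14 of 18 T cell and intraepithelial lymphocyte markers, but all 19 enterocyte markers. None of the cell type marker genes in the table was at 0 in all 12 libraries. Exocrine pancreas RNA set 4 libraries apart. The trypsin genes Prss2, Try4, Try5 and Try10, which acinar cells of the neighbouring pancreas express, summed to 83.6, 154 and 124 CPM in Saline-antibiotic 1, 2 and 5 and to 139 CPM in Leptin-antibiotic 3. In Leptin-antibiotic 5 the sum was 11.0 CPM, and in the other 7 libraries at most 0.32 CPM. Of those 4 libraries 3 are saline and 1 is leptin, so many results are given with and without them, and they are called pancreas-high here. A value given only once is from all 12 libraries. Saline-antibiotic 2 also held the liver transcripts Alb (41.3 CPM, where the saline median was 0.455 CPM and the highest leptin library held 0.382 CPM) and Serpina1a (6.24 CPM).

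In antibiotic-treated mice given leptin, 75 of 16340 tested genes were expressed more highly than after saline and 9 less highly. The rises were led by Fkbp5, the predicted gene Gm826, Hlf, Tmem229b and Bcl6, and they included glucocorticoid-responsive genes, clock-controlled genes, nuclear receptors, lipid and solute handling genes and mucosal surface genes. Most were modest in size, with log2 fold changes of 0.24 to 1.48 (median 0.48). Of the 75, 5 at least doubled and 42 changed by less than 0.50 on the log2 scale. The falls were led by Nr4a1, a nuclear receptor induced within minutes of many stimuli. Sizes of change are log2 fold changes throughout. These calls were made with edgeR's quasi-likelihood test at an adjusted p of 0.05, and they were 0.514% of the genes tested in either direction, 0.459% as rises and 0.0551% as falls. An unadjusted p under 0.05 was reached by 2817 genes, of which 1637 were positive. In 64 of the 75 risers and 4 of the 9 fallers the 2 groups of 6 libraries did not overlap. Over all tested genes, leptin libraries lay wholly above saline libraries for 272 genes (1.66%) and wholly below for 63 (0.386%). Whether each numbered library came from its own animal is not stated in the labels, so p-values measure the spread between these samples.

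**Figure D1:**
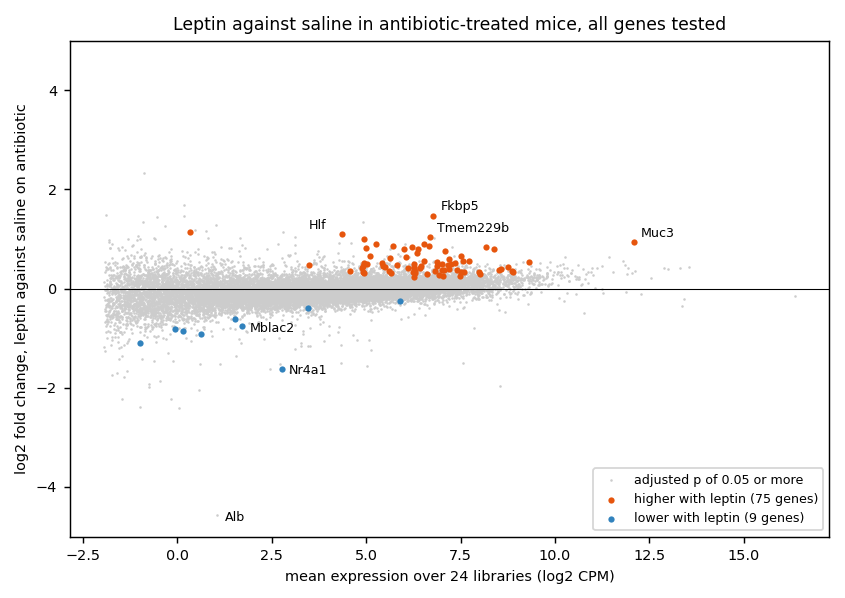
Log2 fold change of leptin against saline on antibiotic (vertical axis) against mean expression over 24 libraries in log2 CPM (horizontal axis), 1 point per tested gene; orange points are the 75 higher and blue points the 9 lower at an adjusted p under 0.05. The orange points lie mainly at middle and high expression and between 0.24 and 1.48, and Alb, at -4.57, is far from 0 without being called.

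The count of calls rested on few libraries. With the 4 pancreas-high libraries left out, which left 3 saline and 5 leptin libraries, edgeR called 0 genes (1263 at an unadjusted p under 0.05, lowest adjusted p 0.201). All 84 genes kept their sign there, 83 had an unadjusted p under 0.05, and 76 kept over 2/3 of their log2 fold change. The genes had been called with the same remaining libraries, so this is partly built in. The share of all tested genes that kept their sign was not counted. Leaving the 4 pancreas-high libraries out did not even out pancreas RNA. The exocrine pancreas median went from -1.03 (4 of 26 positive) to 1.31 (23 of 26 positive), with Leptin-antibiotic 5 kept in. Markers of other cells shifted with that choice too. The median of macrophage and dendritic cell markers went from 0.09 (11 of 16 positive) to -0.25 (1 positive). That of smooth muscle markers went from -0.13 (1 of 14 positive) to 0.17 (12 positive). Enteric neuron and glia markers went from a median of -0.09 (5 of 19 positive) to 0.15 (15 positive). The 14 tested markers of stomach and of Brunner's glands, the mucous glands of the duodenal wall, went from a median of -0.09 (2 positive) to 0.77 (14 positive), T cell markers from 0.04 to -0.45 (1 of 14 positive) and B and plasma cell markers from -0.20 to -0.91 (0 of 9 positive). The stomach and Brunner's gland markers, all detected, summed to 7958 to 25210 CPM in the saline and 5213 to 27635 CPM in the leptin libraries, so the ranges overlapped. The part of these cells in the results was not tested. DESeq2 called 459 genes from the full set of libraries.

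The riser with the largest fold change was a glucocorticoid-responsive gene, and 3 others of its kind passed with it. Fkbp5 encodes an immunophilin that restrains the glucocorticoid receptor and is itself induced by it (chr17:28399094-28517527, minus strand). It stood at 29.9 to 87.2 CPM (median 56.3) in the saline libraries and at 109 to 221 CPM (median 152) in the leptin libraries (log2 fold change 1.48, SE 0.31, adjusted p = 0.0282). The lowest leptin library was above the highest saline library, and 1.80 was the log2 fold change with the 4 pancreas-high libraries left out. Tsc22d3 encodes GILZ, a leucine zipper protein through which glucocorticoids restrain inflammation (chrX:140539528-140600659, minus strand). Its level went from 48.7 to 60.9 CPM (median 57.3) to 81.1 to 116 CPM (median 99.1), again with no overlap (log2 fold change 0.84, SE 0.16, adjusted p = 0.0160). Bcl6, a transcriptional repressor of lymphocytes and metabolic tissues (chr16:23965052-23988852, minus strand), was at 15.982 to 23.7 CPM (median 20.6) with saline and at 35.7 to 46.2 CPM (median 41.4) with leptin (log2 fold change 1.00, SE 0.17, adjusted p = 0.00980). The saline libraries were tightly grouped for both genes, and every leptin library was above them. Per1, a negative limb component of the clock that glucocorticoids also induce (chr11:69095217-69109960, plus strand), measured 34.7 to 55.7 CPM (median 46.5) and 73.4 to 90.2 CPM (median 81.0) (log2 fold change 0.80, SE 0.18, adjusted p = 0.0397).

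The promoters of these 4 genes are shown because they are the called members of the glucocorticoid response list. Each window runs from 250 bases before to 50 bases after a RefSeq transcription start (GRCm38.p6) and is written 5′ to 3′ on the gene's own strand. Capitals mark the E-box CACGTG, bound by clock factors, in Fkbp5, Per1 and Bcl6. In Tsc22d3 they mark TGTTCT, the reverse complement of AGAACA, which is 1 arm of the glucocorticoid receptor's palindromic site. Tsc22d3 had 3 promoter windows and Per1 and Bcl6 had 2 each, and the 1 shown for each gene holds a match. The other Bcl6 window held TGTTCT. The windows of Tsc22d3 and Per1 that are not shown held no match to any motif searched here.
Fkbp5 (chr17:28486100-28486399, minus strand): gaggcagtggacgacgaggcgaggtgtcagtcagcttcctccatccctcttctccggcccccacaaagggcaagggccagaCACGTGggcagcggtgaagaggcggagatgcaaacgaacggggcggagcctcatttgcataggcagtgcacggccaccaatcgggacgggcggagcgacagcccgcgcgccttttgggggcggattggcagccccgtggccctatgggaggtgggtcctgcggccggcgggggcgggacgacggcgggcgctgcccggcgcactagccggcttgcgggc
Per1 (chr11:69098699-69098998, plus strand): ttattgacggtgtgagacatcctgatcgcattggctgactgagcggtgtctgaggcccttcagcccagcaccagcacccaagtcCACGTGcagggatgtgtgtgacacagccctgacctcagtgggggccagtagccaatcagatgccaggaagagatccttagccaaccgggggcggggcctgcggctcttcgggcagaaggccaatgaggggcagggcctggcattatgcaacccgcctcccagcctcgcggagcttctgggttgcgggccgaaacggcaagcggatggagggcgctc
Bcl6 (chr16:23988803-23989102, minus strand): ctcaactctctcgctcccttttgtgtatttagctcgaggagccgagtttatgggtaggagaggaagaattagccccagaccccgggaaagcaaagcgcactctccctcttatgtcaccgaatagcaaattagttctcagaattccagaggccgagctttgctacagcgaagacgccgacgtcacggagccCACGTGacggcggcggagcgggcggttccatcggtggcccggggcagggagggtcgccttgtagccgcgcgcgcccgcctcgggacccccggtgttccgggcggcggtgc
Tsc22d3 (chrX:140600473-140600772, minus strand): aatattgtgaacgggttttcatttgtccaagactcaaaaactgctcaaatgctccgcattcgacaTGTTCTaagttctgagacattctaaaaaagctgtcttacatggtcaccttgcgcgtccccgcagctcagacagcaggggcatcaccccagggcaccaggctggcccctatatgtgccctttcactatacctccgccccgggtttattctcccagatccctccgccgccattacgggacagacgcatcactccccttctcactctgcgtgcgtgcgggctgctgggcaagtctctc
Promoter windows were found by symbol for 12671 of the 16340 tested genes and for 68 of the 84 called genes. Searched on both strands, CACGTG was in at least 1 window of 10 of 61 risers (16.4%) and of 10.9% of all tested genes. AGAACA was in 8 of 61 risers (13.1%) and in 15.7% of all tested genes. Neither the palindrome of AGAACA and TGTTCT with 3 bases between them nor the D-box TTATGTAA was found in a riser, and the CRE TGACGTCA was in 1. These are matches of letters in the windows only, and a factor's binding was not measured.

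As a group, 23 of 28 tested members of the glucocorticoid response list had positive fold changes, with a median of 0.51 where the median of all tested genes was -0.02 and 46.4% were positive. The 4 members past the threshold were Bcl6, Tsc22d3, Fkbp5 and Per1, and none passed as a fall. The list median was 0.41 with the 4 pancreas-high libraries left out and 0.21 in leptin against saline on water. Sgk1, a glucocorticoid-induced kinase that activates sodium transport, was at 89.3 to 379 CPM (median 299.6) with saline and at 483 to 775 CPM (median 560.4) with leptin, without overlap, but its wide spread left it at an adjusted p of 0.116. Klf15, a glucocorticoid-induced regulator of amino acid breakdown, likewise did not pass (log2 fold change 0.75, SE 0.20, adjusted p = 0.0698). The receptor gene itself, Nr3c1, was at -0.10 (SE 0.06, adjusted p = 0.416) on the log2 scale.

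Clock-controlled output genes formed a second set. Hlf, a PAR bZIP transcription factor driven by the clock (chr11:90336536-90390895, minus strand), measured 10.9 to 23.3 CPM (median 13.4) with saline and 24.6 to 49.2 CPM (median 34.7) with leptin (log2 fold change 1.10, SE 0.26, adjusted p = 0.0481). Noct encodes nocturnin, a rhythmic dinucleotide phosphatase linked to intestinal fat handling (chr3:51224447-51251644, plus strand), and it rose from 39.0 to 90.3 CPM (median 71.7) to 115 to 146 CPM (median 135) (log2 fold change 0.90, SE 0.19, adjusted p = 0.0257). For Usp2, a rhythmic deubiquitinase, the saline libraries were at 51.7 to 76.6 CPM (median 69.8) and the leptin libraries at 86.0 to 142 CPM (median 111) (log2 fold change 0.71, SE 0.14, adjusted p = 0.0183). The groups did not overlap in any of the 3. In all, 9 of 10 output genes were positive (median 0.42, and 0.38 with the 4 pancreas-high libraries left out), and these 3 passed. Of 18 core clock genes 13 were positive with a median of 0.15, and Per1 alone passed. That median was -0.0024, with 8 positive, when a score of enterocyte markers was a term in the fit. Per2, the partner of Per1, was at 0.66 (SE 0.19, adjusted p = 0.102), and Dbp, the PAR bZIP relative of Hlf, at 0.65 (SE 0.31, adjusted p = 0.277).

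**Figure D2:**
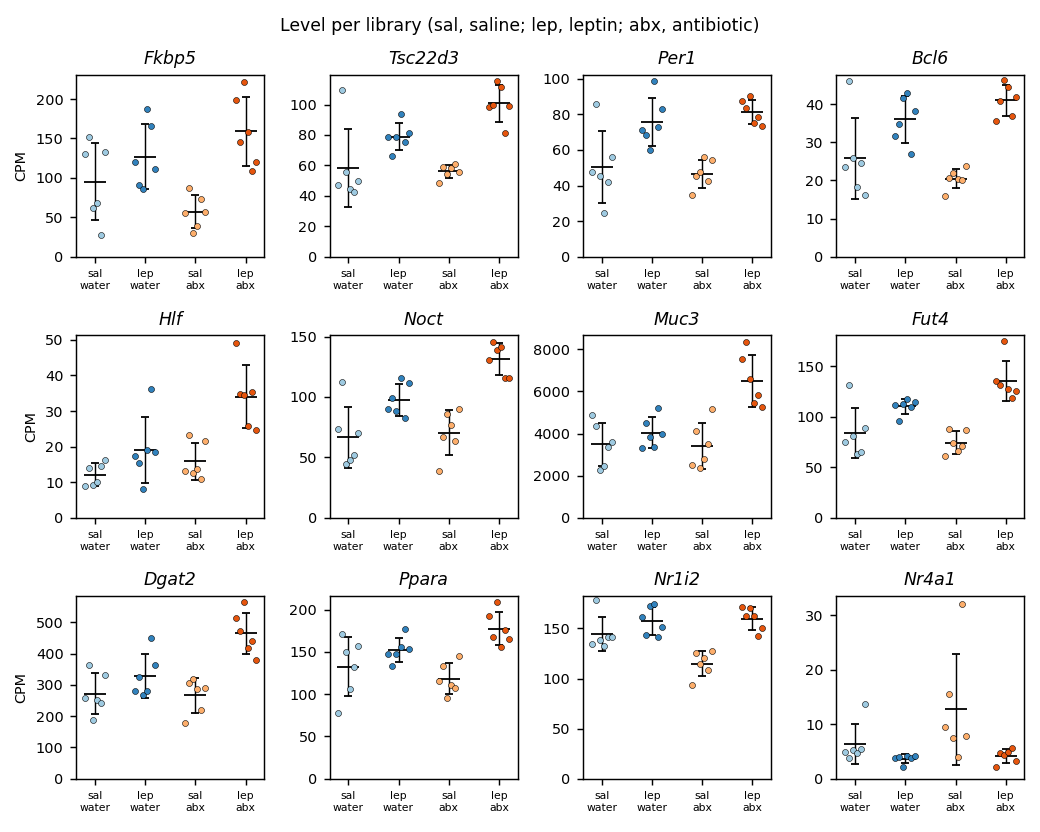
Level in CPM (vertical axes, starting at 0) of 12 genes in each library of the 4 groups of 6; points are libraries, long ticks group means and bars 1 SD. In the antibiotic pairs the leptin points of Fkbp5, Tsc22d3, Per1, Bcl6, Hlf, Noct, Muc3, Fut4, Dgat2, Ppara and Nr1i2 lie above all saline points, whereas those of Nr4a1 overlap.

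Nuclear receptors, the ligand-gated transcription factors, contributed 4 rises and 1 fall among 42 tested members. Over all tested genes 0.459% passed as rises and 0.0551% as falls. Nr1i2 encodes PXR, the sensor of drugs and bile acids (chr16:38248323-38294824, minus strand). Its level was 93.5 to 128 CPM (median 117) with saline and 142 to 172 CPM (median 162) with leptin (log2 fold change 0.48, SE 0.08, adjusted p = 0.00980), with no overlap. Ppara encodes the fatty acid sensor PPAR-alpha (chr15:85734983-85802819, plus strand) and went from 95.4 to 146 CPM (median 113) to 156 to 209 CPM (median 172) (log2 fold change 0.59, SE 0.14, adjusted p = 0.0481). Nr1h3, the oxysterol receptor LXR-alpha, rose by 0.31 (SE 0.07, adjusted p = 0.0340) and Esrra, a driver of mitochondrial genes, by 0.34 (SE 0.07, adjusted p = 0.0282). For Esrra and Nr1h3 too, each leptin library was above each saline library. Rxra, the shared dimer partner of PXR, PPAR-alpha and LXR-alpha, was at 0.28 (SE 0.07, adjusted p = 0.0554) and did not pass. The remaining members include receptors of both signs, and the family median was 0.09. This family was taken whole by symbol after the called genes had been seen, so its count of calls is a description.

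Genes that these receptors are known to regulate were mostly positive but seldom passed. Of 40 tested genes of PPAR-alpha and fatty acid oxidation, 40 were positive with a median of 0.25, and Ppara itself was the 1 that passed. Angptl4, the PPAR-induced inhibitor of lipoprotein lipase, stood at 8.27 to 33.0 CPM (median 20.4) with saline and 35.9 to 74.7 CPM (median 45.6) with leptin (log2 fold change 1.34, SE 0.41, adjusted p = 0.111). Its groups were separate, but the spread within them was large. Of 35 xenobiotic metabolism genes 33 were positive with a median of 0.28, and Nr1i2 was the 1 that passed. With the 4 pancreas-high libraries left out these medians were 0.11 and 0.05. With a score of enterocyte markers as a term in the fit (described further on), the xenobiotic median turned to -0.057 with 12 of 35 positive. Among 20 genes of bile acid, sterol and oxysterol handling, Cyp27a1 and Nr1h3 passed and 16 were positive (median 0.11). With the 4 pancreas-high libraries left out 11 were positive (median 0.035). Cyp27a1, the mitochondrial sterol 27-hydroxylase that makes an LXR ligand (chr1:74713574-74737892, plus strand), measured 19.2 to 37.7 CPM (median 29.0) with saline and 43.4 to 65.6 CPM (median 55.0) with leptin (log2 fold change 0.90, SE 0.17, adjusted p = 0.0160), without overlap. Abca1, the LXR-induced cholesterol exporter, was at 0.50 (SE 0.14, adjusted p = 0.0906).

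Lipid assembly genes followed the same direction. Dgat2 catalyses the last step of triglyceride synthesis (chr7:99153658-99182719, minus strand). The saline libraries held 178 to 319 CPM (median 289) and the leptin libraries 380.3 to 565 CPM (median 457) (log2 fold change 0.80, SE 0.16, adjusted p = 0.0183), so the ranges were apart. Outside the list, Agpat3, an acyltransferase of phospholipid synthesis, rose by 0.38 (SE 0.07, adjusted p = 0.0160) and Cdipt, which makes phosphatidylinositol, by 0.37 (SE 0.08, adjusted p = 0.0282). Gramd1b, which carries cholesterol from the plasma membrane to the endoplasmic reticulum, rose by 0.52 (SE 0.10, adjusted p = 0.0173), and the oxysterol-binding protein gene Osbpl3 by 0.41 (SE 0.09, adjusted p = 0.0481). Within the list of lipid absorption and chylomicron genes, 34 of 35 were positive with a median of 0.28, of which Dgat2 alone passed. That median was 0.09 with the 4 pancreas-high libraries left out and 0.05 on water. Cholesterol synthesis went the other way without a call, with 17 of 22 genes negative and a median of -0.18. Idi1 and Cyp51, enzymes of that pathway, had the lowest p and were at -0.46 (SE 0.13, adjusted p = 0.101) and -0.31 (SE 0.11, adjusted p = 0.161). Of 16 fatty acid synthesis genes 11 were negative (median -0.16), and Acaca, the acetyl-CoA carboxylase, was at -0.24 (SE 0.08, adjusted p = 0.123).

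Absorptive and secretory transport was represented by channels, carriers and signals. Kcnk5, the acid-sensitive potassium channel TASK-2 (chr14:20140057-20181809, minus strand), rose from 46.2 to 76.3 CPM (median 62.8) to 88.0 to 135 CPM (median 106) (log2 fold change 0.80, SE 0.14, adjusted p = 0.00980). Guca2b encodes uroguanylin, the secreted peptide that drives chloride and water secretion through guanylate cyclase C. It was at 169 to 332 CPM (median 259) with saline and at 299.6 to 619 CPM (median 448) with leptin (log2 fold change 0.84, SE 0.20, adjusted p = 0.0481), and here the ranges overlapped. Its log2 fold change was 0.56 with the 4 pancreas-high libraries left out and 0.29 with a score of enterocyte markers as a term. Vipr1, the epithelial receptor for vasoactive intestinal peptide, rose by 0.33 (SE 0.07, adjusted p = 0.0340). Rises were 0.459% of all tested genes, and of 310 solute carrier genes 6 passed, all as rises. They were the taurine carrier Slc6a6 (0.40), the monocarboxylate carrier relative Slc16a9 (0.76), the sugar phosphate carrier Slc37a2 (0.65), the zinc carriers Slc30a2 (0.50) and Slc39a14 (0.43), and Slc35e3 (0.65), all as log2 fold changes. With that score as a term Slc16a9 was at 0.34. Slc6a6 had the lowest p of these, with 324 to 363 CPM (median 345) in saline and 405 to 518 CPM (median 452) in leptin libraries (adjusted p = 0.0160). The solute carrier family as a whole had a median of 0.06 and was also taken by symbol after the calls were known, so its count is a description.

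Sugar and peptide handling lists were positive without called members other than Slc6a6. Of 20 genes of carbohydrate digestion and sugar transport 17 were positive, with a median of 0.36 (0.18 with the 4 pancreas-high libraries left out), and 0 passed, while 11 had an unadjusted p under 0.05. Slc5a1, the sodium-glucose cotransporter SGLT1, was at 1603 to 2933 CPM (median 2388) with saline and 2806 to 4498 CPM (median 3596) with leptin (log2 fold change 0.64, SE 0.16, adjusted p = 0.0611). Lct, the gene of lactase, was at 0.65 (SE 0.20, adjusted p = 0.121) and the glucose-6-phosphate carrier Slc37a4 at 0.46 (SE 0.12, adjusted p = 0.0781). Hkdc1, a hexokinase relative outside the list, did pass and rose by 0.38 (SE 0.08, adjusted p = 0.0234). Of 27 genes of amino acid and peptide uptake 23 were positive with a median of 0.33, which was 0.09 with the 4 pancreas-high libraries left out. Nags, which makes the activator of the first urea cycle enzyme and supports intestinal citrulline synthesis (chr11:102145513-102149477, plus strand), lay at 42.0 to 44.7 CPM (median 44.1) in saline and 50.2 to 64.7 CPM (median 55.9) in leptin libraries (log2 fold change 0.35, SE 0.06, adjusted p = 0.00980). Its saline values spanned a narrow range, and no leptin library lay among them.

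Enterocyte markers leaned the same way as these nutrient lists. The 19 enterocyte markers summed to 22813 to 39782 CPM in the saline libraries and 35682 to 52056 CPM in the leptin libraries, so the ranges overlapped. None of the 19 passed the test, 17 were positive and the list median was 0.33 (0.10 with the 4 pancreas-high libraries left out). In bulk samples fewer cells of a type and less RNA per cell cannot be told apart. With the enterocyte score as a term in the fit, edgeR called 0 genes (1112 at an unadjusted p under 0.05), an alternative added after the data had been seen. All 84 called genes kept their sign in that fit, which reuses the libraries from which they were called. The score shares at least Lct with the carbohydrate list, and it also holds Apoa1, Apoa4, Fabp1 and Fabp2. How many members it shares with each list was not counted. Enterocyte sums were higher on average with leptin (43071 against 33099 CPM). Smaller list medians in that fit are therefore partly built in. There, the medians were 0.29 for the glucocorticoid list, 0.22 for clock output, 0.04 for lipid absorption, 0.06 for PPAR-alpha genes, 0.10 for carbohydrate genes and 0.05 for amino acid genes. Other lists turned in direction there. The core clock median was -0.0024 (8 of 18 positive), xenobiotic metabolism -0.057, interferon-stimulated genes -0.043, junctions -0.0028, integrins -0.066 and the leptin receptor list -0.046. Among the lists that leaned negative, the stem cell median was 0.012 and that of antimicrobial genes 0.0034. Of the 84 called genes 56 kept over 2/3 of their log2 fold change in this fit and 28 did not, and the largest of the reductions in proportion was that of Guca2b. Fkbp5 was at 1.41, Bcl6 at 0.84, Tsc22d3 at 0.69 and Dgat2 at 0.49 on the log2 scale in the same fit.

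**Figure D3:**
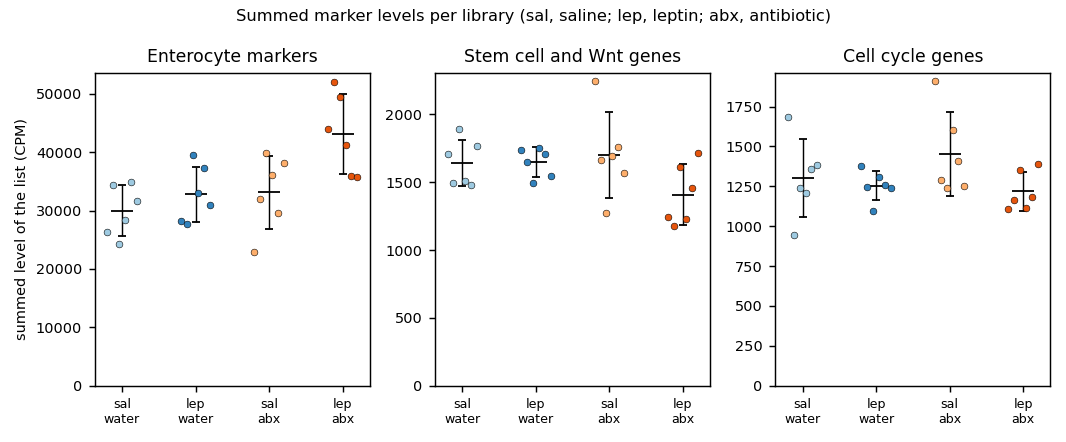
Summed CPM of the enterocyte, stem cell and Wnt, and cell cycle lists (vertical axes, starting at 0) in each library of the 4 groups of 6; points are libraries, long ticks means and bars 1 SD. Enterocyte sums reach 52056 CPM in the leptin libraries on antibiotic, while the stem cell and cell cycle sums extend highest in the saline libraries on antibiotic (2249 and 1911 CPM), and ranges overlap in every panel.

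Crypt and proliferation genes were on the negative side, with no call. Of 17 stem cell and Wnt genes 16 were negative (median -0.21), and of 31 cell cycle genes 29 were negative (median -0.26). Mki67, the proliferation antigen, was at 187 to 302 CPM (median 205) with saline and 156 to 206 CPM (median 168) with leptin (log2 fold change -0.39, SE 0.14, adjusted p = 0.172), so its groups overlapped. Cenpf, a kinetochore protein of mitosis, was at -0.41 (SE 0.14, adjusted p = 0.137). Summed cell cycle levels were 1239 to 1911 CPM in saline and 1110 to 1392 CPM in leptin libraries. The cell cycle median was -0.22 with the 4 pancreas-high libraries left out, and the stem cell median was -0.06. With the enterocyte score as a term they were -0.095 (6 of 31 positive) and 0.012 (9 of 17 positive), so the stem cell list no longer leaned negative. Tob2, an antiproliferative partner of the deadenylase complex (chr15:81848272-81858796, minus strand), passed as a rise, from 86.3 to 105 CPM (median 100.1) to 127 to 159 CPM (median 136) (log2 fold change 0.54, SE 0.09, adjusted p = 0.00980).

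Mucosal surface and barrier genes included some of the most abundant risers. Muc3 encodes a membrane-bound mucin of the brush border (chr5:137134922-137149322, minus strand). It was at 2369 to 5146 CPM (median 3151) with saline and 5243 to 8363 CPM (median 6219) with leptin (log2 fold change 0.93, SE 0.20, adjusted p = 0.0285). Its groups were separate by a narrow margin between the highest saline and the lowest leptin library. Fut4, a fucosyltransferase that builds Lewis antigens (chr9:14748320-14752393, minus strand), rose from 60.8 to 87.9 CPM (median 72.2) to 118 to 175 CPM (median 129) (log2 fold change 0.86, SE 0.13, adjusted p = 0.00980). Both are among the 24 tested genes of mucins and glycosylation, of which 12 were positive and none fell. The secreted mucin Muc2 of goblet cells did not pass (log2 fold change 0.38, SE 0.11, adjusted p = 0.104), nor did Fcgbp, its mucus partner (log2 fold change 0.41, SE 0.13, adjusted p = 0.114). St3gal1, a sialyltransferase of mucin-type glycans, rose by 0.46 (SE 0.11, adjusted p = 0.0481). Amn, which forms the cobalamin receptor with cubilin, rose by 0.42 (SE 0.10, adjusted p = 0.0481), and Fcgrt, the neonatal Fc receptor that carries IgG across epithelium, by 0.41 (SE 0.09, adjusted p = 0.0282). Entpd7 encodes an enzyme that hydrolyses extracellular nucleotides in the small intestine (chr19:43689672-43733697, plus strand), and it measured 438 to 601 CPM (median 567) with saline and 684 to 872 CPM (median 777) with leptin (log2 fold change 0.54, SE 0.09, adjusted p = 0.0106).

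Among adhesion genes, Itga6 and Itga3 passed out of 25 integrin chains (a family also taken by symbol after the calls were seen). Both encode laminin receptor chains of the basal epithelial surface, and they rose by 0.33 (SE 0.07, adjusted p = 0.0173) and 0.30 (SE 0.06, adjusted p = 0.0282). The integrin median was 0.03 (-0.02 with the 4 pancreas-high libraries left out), so the other chains were spread around 0. Over all tested genes 0.459% passed as rises, and the count for this family is a description. Of 26 junction and barrier genes 0 passed and 18 were positive (median 0.08).

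Inflammatory regulators changed in a small number. Tnfaip3, the ubiquitin-editing inhibitor of NF-kappaB known as A20, rose from 22.8 to 33.6 CPM (median 27.5) to 37.8 to 44.1 CPM (median 38.3) (log2 fold change 0.50, SE 0.10, adjusted p = 0.0173). Il10rb, a subunit of the interleukin-10 and interleukin-22 receptors, rose by 0.41 (SE 0.08, adjusted p = 0.0160), Ltb4r1, the leukotriene B4 receptor, by 0.48 (SE 0.11, adjusted p = 0.0481), and Plscr1, an interferon-inducible scramblase, by 0.61 (SE 0.11, adjusted p = 0.0160). Of 28 interferon-stimulated genes 25 were positive with a median of 0.20 and 0 passed; 1 had an unadjusted p under 0.05, and the summed level spanned 912 to 1424 CPM in saline and 811 to 2247 CPM in leptin libraries. The interferon median was 0.11 (17 positive) with the 4 pancreas-high libraries left out and turned to -0.043 (9 positive) with the enterocyte score as a term. Reg3b and Reg3g, the antimicrobial lectins of enterocytes, varied widely. Reg3b was at 3.75 to 197 CPM (median 24.5) with saline and 2.98 to 26.0 CPM (median 14.7) with leptin, and Reg3g at 9.56 to 176 CPM (median 31.9) and 11.4 to 28.6 CPM (median 18.9), so that neither passed (-1.97 (SE 1.09, adjusted p = 0.353) and -1.51 (SE 0.87, adjusted p = 0.372)). Whether reads were shared between these related genes in the counting was not tested. Of 21 antimicrobial and Paneth cell genes 17 were negative (median -0.19) and none passed. With the enterocyte score as a term 11 of the 21 were positive, with a median of 0.0034. MHC class II genes had a median of -0.08, which was -0.63 with the 4 pancreas-high libraries left out.

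Survival and signalling genes were also among the rises. Bcl2l1, the anti-apoptotic BCL-XL gene, rose by 0.46 (SE 0.09, adjusted p = 0.0160) and Mdm2, the ubiquitin ligase that limits p53, by 0.44 (SE 0.09, adjusted p = 0.0311). Of 19 p53 target genes 9 were positive and Mdm2 was the 1 that passed. Cdkn1a, the cell cycle inhibitor p21, was just outside the threshold at 0.52 (SE 0.12, adjusted p = 0.0534). Inpp5b, an inositol polyphosphate 5-phosphatase (chr4:124741850-124801511, plus strand), rose from 80.4 to 109.8 CPM (median 99.9) to 124 to 153 CPM (median 130.1) (log2 fold change 0.45, SE 0.07, adjusted p = 0.00980). Plekhh1, which encodes a pleckstrin homology protein (chr12:79029163-79081655, plus strand), was at 95.8 to 124 CPM (median 108) with saline and 135 to 174 CPM (median 150.4) with leptin (log2 fold change 0.50, SE 0.08, adjusted p = 0.00980). Tmem229b, a membrane protein gene, went from 37.8 to 87.9 CPM (median 63.0) to 114 to 160.5 CPM (median 128) (log2 fold change 1.04, SE 0.23, adjusted p = 0.0312), and Ankrd9, an ankyrin repeat gene, rose by 0.44 (SE 0.08, adjusted p = 0.0146). Transcriptional regulators among the risers were Tle1, a Groucho corepressor (0.56), Bach1, a repressor of haem-responsive genes (0.37), Ets2 (0.34) and Bcl9l, a cofactor of beta-catenin (0.34), given as log2 fold changes. Further risers were Vwa1, Tmem37, AA986860, Cdc42se2, Mapk6, D130043K22Rik, Tesk2, Nat8f4, Fam160a1, Higd1a, Rapgef2, C77080, Tmem98, Gfod1, Arsa, Tjap1, Naa60, Pptc7, Dnajc5, Pde4dip and Ppp1r13b, of which Vwa1, an extracellular matrix gene, had the largest log2 fold change (0.86). The grouping of called genes by function beyond the gene lists was made after they were known.

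The falls numbered 9, most of them at low expression. Nr4a1 (chr15:101254269-101274795, plus strand) was at 3.97 to 32.0 CPM (median 8.70) with saline and 2.11 to 5.66 CPM (median 4.43) with leptin (log2 fold change -1.62, SE 0.38, adjusted p = 0.0481). Its groups overlapped, and 1 saline library lay far above the others. With the 4 pancreas-high libraries left out it was at -0.65, the only one of the 84 whose unadjusted p was then 0.05 or more. Mblac2, a metallo-beta-lactamase domain hydrolase (chr13:81711341-81753275, plus strand), went from 3.19 to 4.57 CPM (median 3.86) to 1.603 to 2.96 CPM (median 2.30) (log2 fold change -0.76, SE 0.13, adjusted p = 0.0106), without overlap. Zfp267, a zinc finger gene, also passed (log2 fold change -0.40, SE 0.09, adjusted p = 0.0481), as did Sestd1, which encodes a phospholipid-binding spectrin repeat protein (log2 fold change -0.24, SE 0.06, adjusted p = 0.0481). Among the rest were Olfml1 (-0.85), Maneal (-0.80) and the transcripts C030034I22Rik (-0.61) and A930012L18Rik (-1.10), given as log2 fold changes.

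Leptin's own signalling genes gave no call in the duodenum. Of 19 genes of the leptin receptor and JAK-STAT list, 10 were positive, with a median of 0.04. Lepr, the receptor, was at 8.41 to 11.3 CPM (median 9.52) with saline and 5.64 to 11.1 CPM (median 9.04) with leptin (log2 fold change -0.16, SE 0.18, adjusted p = 0.667). Socs3, the feedback inhibitor induced by leptin in its target cells, was at -0.10 (SE 0.20, adjusted p = 0.818). Pim3 and Socs2 had the lowest p of that list and were at 0.56 (SE 0.15, adjusted p = 0.0723) and -0.33 (SE 0.10, adjusted p = 0.121). The immediate early gene Fos was at 0.23 (SE 0.19, adjusted p = 0.539), and of 27 immediate early genes Nr4a1 alone passed. Enteroendocrine genes, which encode gut hormones, were positive in 18 of 23 (median 0.17) with 0 calls. Cck, the hormone of satiety and gallbladder contraction, was at 0.25 (SE 0.14, adjusted p = 0.348) and secretin, Sct, at 0.43 (SE 0.16, adjusted p = 0.172).

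**Figure D4:**
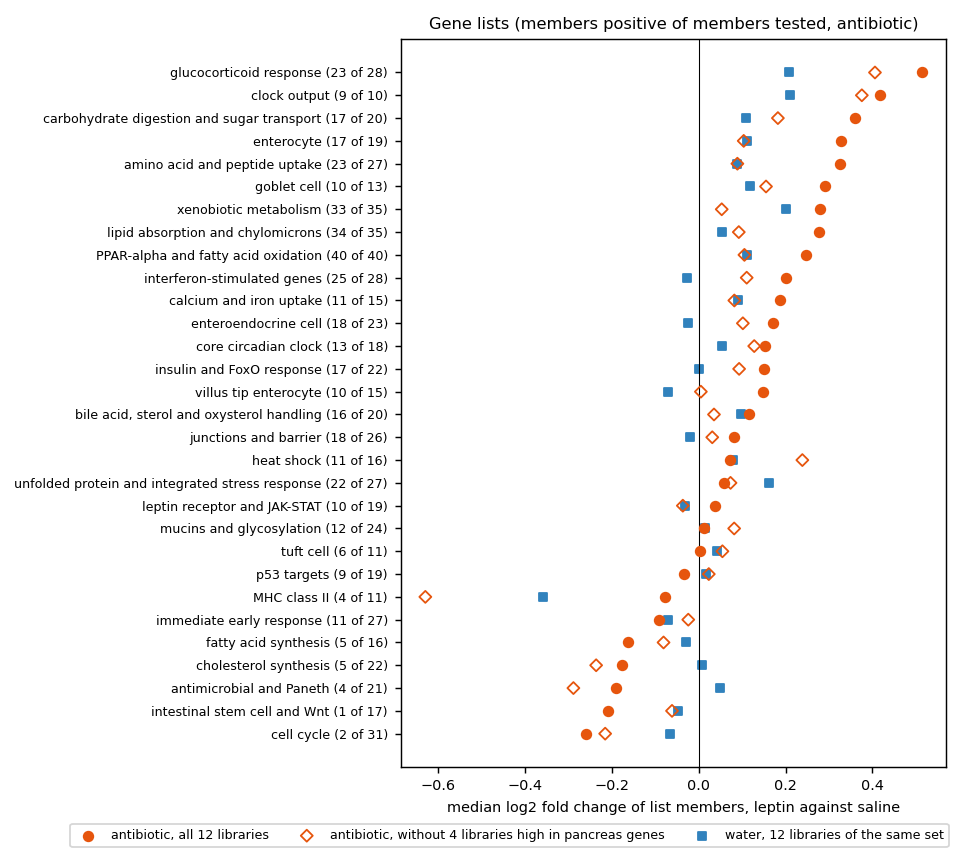
Median log2 fold change of the tested members of each gene list (horizontal axis) for leptin against saline on antibiotic with all 12 libraries (filled circles), with the 4 pancreas-high libraries left out (open diamonds), and on water (squares); numbers after each name are members positive of members tested. The glucocorticoid (0.51) and clock output (0.42) lists are farthest to the right and keep 0.41 and 0.38 as diamonds, whereas the lipid absorption list goes from 0.28 to 0.09.

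On water the same genes leaned the same way with smaller differences. Of the 75 risers 71 were also positive in leptin against saline on water, and of the 9 fallers 9 were negative, where 59.2% of all tested genes had the same sign in both. The leptin comparisons on antibiotic and on water share no library. The median log2 fold change of the risers was 0.48 on antibiotic and 0.15 on water. Of the 84, 28 had an unadjusted p under 0.05 with the same sign on water. That share was not counted over all tested genes, so the 28 have no background to be set against. As the genes were called on antibiotic, their larger size there is a description. Leptin against saline on water called 0 genes in these libraries. The test of the difference between both leptin effects called 0 genes as well, by edgeR, DESeq2 and limma voom alike (edgeR gave 1043 with p under 0.05 before adjustment, and a lowest adjusted p of 0.772). No gene was therefore shown to respond differently on antibiotic.

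Single genes differed in how much their effects diverged. Per1 was at 0.80 on antibiotic and 0.59 on water, a difference of 0.21 (SE 0.25) on the log2 scale. Hlf was at 1.10 and 0.66, and Fkbp5 at 1.48 and 0.41, with a difference of 1.06 (SE 0.44). Inpp5b was at 0.45 and 0.04, and Mblac2 at -0.76 and -0.03, with a difference of -0.73 (SE 0.19). Inpp5b and Mblac2 were thus near 0 on water and Per1 was not, though none of these differences passed after adjustment. Mean levels of the risers in Saline-antibiotic libraries were below those in Saline-water libraries for 47 of 75, and mean levels in Leptin-antibiotic libraries were above those in Leptin-water libraries for 72 of 75. Over all tested genes these shares were 48.2% and 47.9%. Since the risers were called from the same antibiotic libraries, these counts are a description.

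A water library was often the highest of its group for these genes. Saline-water 10 had the highest level of the 6 Saline-water libraries for 50 of the 75 risers, Tsc22d3, Bcl6, Per1, Noct and Fut4 among them. The share over all tested genes was not counted, so whether this is particular to the risers is not known. Without Saline-water 10, an alternative added after the data had been seen, 73 of the risers were positive on water with a median of 0.20. Per1 was then at 0.81 on water with a difference of -0.0084 from antibiotic. The test of the difference still called 0 genes (816 at an unadjusted p under 0.05). Saline-water 10 had been picked for its high levels of these genes, so larger values on water without it are built in. As that library also enters the shared estimate of the spread, leaving it out raised the calls on antibiotic from 84 to 156, which included all 84.

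**Figure D5:**
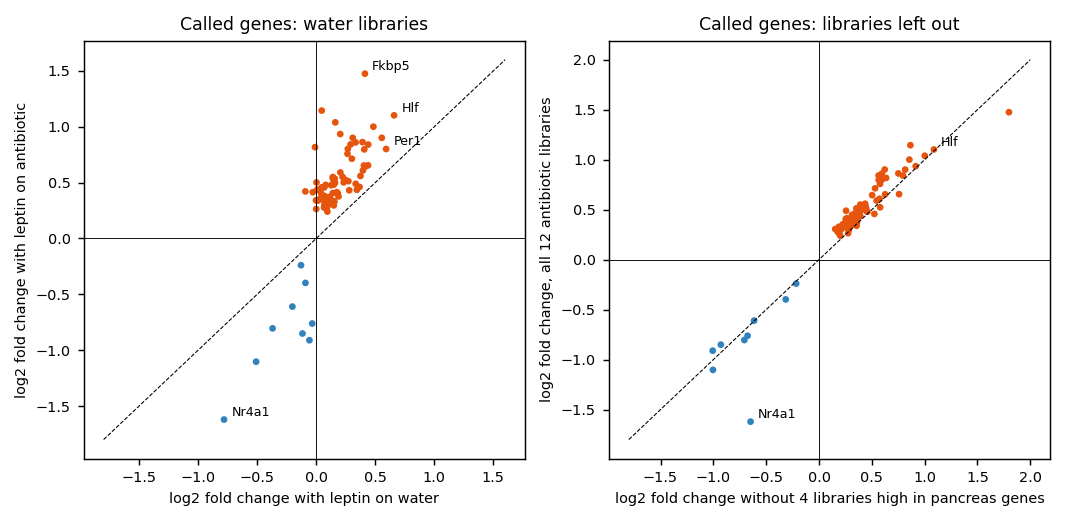
Log2 fold changes of the 84 called genes on antibiotic with all 12 libraries (vertical axes) against those on water (left) and those with the 4 pancreas-high libraries left out (right); orange points rose, blue points fell and the dashed line marks equal values. On the left 80 of 84 points keep their sign and lie nearer 0 on water, and on the right all 84 keep their sign, with Nr4a1 moving from -1.62 to -0.65. The right panel reuses libraries from which the genes were called.

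Leaving out 1 antibiotic library at a time gave between 9 and 182 calls. The count was 9 without Leptin-antibiotic 3, 10 without Saline-antibiotic 1 and 10 without Leptin-antibiotic 2. It was 13 without Saline-antibiotic 4, 18 without Saline-antibiotic 5, 28 without Leptin-antibiotic 1 and 46 without Saline-antibiotic 2, and 182 without Saline-antibiotic 6. The 9 genes called each time were Plekhh1, Nr1i2, Tob2, Inpp5b, Fut4, Bcl6, Nags, Kcnk5 and Entpd7. Of the 84 called genes 15 share exonic bases with a tested gene on the opposite strand in GENCODE vM21, and 2 of these also with one on the same strand. Entpd7 and Cox15, both called, overlap each other by 444 bases, and Plekhh1 overlaps Pigh by 992. Whether reads were assigned by strand is not given in the sources used here, so such counts are uncertain.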

How the data were processed

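RNA of 39 duodenum samples was sequenced as strand-specific, ribosome-depleted, paired-end libraries from 150 ng of total RNA, per the labels' protocols. The authors deposited a table of raw read counts for 16358 gene symbols, which was used as it stands. Build mm10 and the tools HISAT2, featureCounts, FastQC and edgeR 3.42.0 are listed in the submitters' processing notes. The filter behind the table, its annotation and how strand was handled were not given in the sources used here.

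All 24 libraries of the label series that holds the antibiotic groups (6 in each of 4 groups) were fitted together with edgeR 4.0.16 (R 4.3.3, quasi-likelihood, TMM factors, filterByExpr, 16340 genes). The contrast was Leptin-antibiotic minus Saline-antibiotic, and the difference of this from the contrast on water was tested in the same fit. The Benjamini-Hochberg adjustment ran over all 16340 genes, with a threshold of 0.05. SE was obtained by dividing the absolute log2 fold change by the root of F, and CPM was taken after TMM scaling. The test script was checked on simulated counts. No replicate was a repeat of another, since the chi-square per degree of freedom of 30 pairs of libraries was 22.0 to 201.

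Called genes could be named, and 2 of them are not reported here. Values are given for the 8 highest and 8 lowest fold changes whose mean log2 CPM was 1 or more, predicted or unnamed genes aside (4 falls qualified), for the 8 rises and 4 falls of lowest p not yet taken, for members of each list described (those past the threshold, otherwise 2 of lowest p) and for a set chosen whatever its values. Sgk1, Klf15, Per2, Dbp, Rxra, Abca1, Alb and Serpina1a were added after their values were seen. The comparison, the lists and the rule were chosen with earlier results of these data known. Positions are from GENCODE vM21 (GRCm38), which held 83 of the 84 called symbols (all but Zfp267). Alternatives were DESeq2 1.42.0, limma 3.58.1 voom, other scalings and filters, a replicate block, a pancreas score and the Rn45s share as terms, and libraries left out. The enterocyte score and leaving out Saline-water 10 were added after the data had been seen. Robust dispersions (73 calls) had first been the main setting. After the data had been seen they were replaced by edgeR's default (84 calls), as the design did not name them, and kept as an alternative.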

Additional observations from a re-analysis of the deposited data

Results flagged for a closer look

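Each of the 71 genes named by rule was checked in both antibiotic groups for a library whose gap to its nearest neighbour took up more of the group's range than the 95% limit for 6 values. Of 142 groups checked, 8 passed, and chance alone gives about 1 in 20. Leptin-antibiotic 3 was the highest library in 4 of them. It held 174.5 CPM of Fut4 with the next at 135 (gap over range 0.708), 21.8 CPM of Sct with the next at 16.004 (0.792), 50.1 CPM of Chga, a granule protein of endocrine cells, with the next at 36.4 (0.682), and 269 CPM of Herpud1, an endoplasmic reticulum stress gene, with the next at 207 (0.669). It is also 1 of the 4 libraries high in pancreas genes, and the part this plays was not tested.

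Saline-antibiotic 3 was highest of its group for Nr3c1, at 303 CPM with the next at 267 (0.692), and for Reg3g, at 176 CPM with the next at 69.8 (0.637). Usp2 was lowest in Saline-antibiotic 5, at 51.7 CPM with the next at 67.9 (0.650). Cyp51 was lowest in Leptin-antibiotic 1, at 50.0 CPM with the next at 60.4 (0.798).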

How the results depend on the processing

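All 84 called genes kept their sign under every alternative run. Each alternative reuses libraries from which the 84 were called, so kept signs are largely built in. The number called was 84 with edgeR and 459 with DESeq2 (395 higher, 64 lower, 76 of the 84 included). It was 51 with upper quartile factors, 0 with the 4 pancreas-high libraries left out and 0 with the enterocyte score as a term. The pancreas score and the Rn45s share, each also 1 more term in the fit, left 57 and 66 calls. Why both counts were 0 was not tested. Without 1 library at a time the number called was 9 to 182. Limma voom, relative log expression factors, both other filters, the pancreas score, the Rn45s share, robust dispersions and the 12 antibiotic libraries alone gave 57 to 96. The difference from water had 0 calls under each alternative run for it. With the replicate block 71 genes were called, 60 of them among the 84. Same-numbered saline and leptin libraries correlated at -0.51 to 0.67 in their deviations from the group means over 5000 genes, and 1 of 6 numbers matched best with itself, so the numbers were not taken to pair samples. Cck and Ctss, neither of them called, changed sign. Cck was at -0.025 with the enterocyte score as a term, and Ctss, a protease of antigen presentation, was at -0.047 with the pancreas-high libraries left out and at -0.094 with the enterocyte score, against 0.21 with all libraries. Falls near 1 CPM, such as Olfml1, rest on few reads.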

Other observations

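Stress and hormone-related lists that hold no called gene were also measured. Of 27 genes of the unfolded protein and integrated stress response 22 were positive, with a median of 0.06 on antibiotic and 0.16 on water. Herpud1, which takes part in degradation at the endoplasmic reticulum, stood at 101 to 159 CPM (median 129) with saline and at 177 to 269 CPM (median 191) with leptin, without overlap, just outside the threshold (log2 fold change 0.65, SE 0.16, adjusted p = 0.0534). Trib3, a pseudokinase induced by amino acid shortage, was at 0.56 (SE 0.17, adjusted p = 0.108). Heat shock genes had a median of 0.07, and of 0.24 with the 4 pancreas-high libraries left out, and the cochaperone genes Dnajb1 and Dnaja1 were at 0.24 (SE 0.07, adjusted p = 0.102) and 0.31 (SE 0.12, adjusted p = 0.199).

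Of 15 tested genes of calcium and iron uptake 11 were positive (median 0.19, and 0.08 with the 4 pancreas-high libraries left out). Epas1, which encodes the hypoxia factor that drives intestinal iron uptake, was at 228 to 345 CPM (median 294) with saline and 352 to 421 CPM (median 370.3) with leptin (log2 fold change 0.38, SE 0.09, adjusted p = 0.0534), with no overlap between the groups. Heph, the ferroxidase of iron export, was at 0.32 (SE 0.10, adjusted p = 0.129). Nos2, the inducible nitric oxide synthase, was at 0.302 to 6.71 CPM (median 0.741) with saline and 0.438 to 0.619 CPM (median 0.457) with leptin, so the saline median lay above the highest leptin library (log2 fold change -2.04, SE 0.60, adjusted p = 0.104).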
